A study of Mus musculus with 2 samples.

Results

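The transcripts described here are 10 core genes of the cell division cycle, 7 cyclins (Ccnd1, Ccnd2, Ccnd3, Ccne1, Ccne2, Ccna2 and Ccnb1) and 3 cyclin-dependent kinases (Cdk1, Cdk2 and Cdk4), chosen by symbol from the 18888 genes of the deposited table. All 10 are in the table, and all 10 reached at least 1 FPKM (fragments per kilobase of gene, scaled to the mapped fragments of the library) in a library. The cells were 46C mouse embryonic stem cells (mESCs) on gelatin, at passages 21 to 24 per the labels. PB mESCs carried the empty PiggyBac vector, and PB-TERRA mESCs carried the same vector with telomeric repeats, from which polyadenylated TERRA, the noncoding RNA of telomeres, was overexpressed. Whether either line was a single clone is not given in the sources used here, and the exogenous TERRA itself is not analysed here. RNA of each line was sequenced as 1 library, so there is no replicate spread, and every difference below is between 2 libraries.

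Cyclins are the regulatory subunits of cyclin-dependent kinases (CDKs), and the CDKs described here are activated by binding a cyclin. D cyclins bind Cdk4 and Cdk6 and relay growth signals in G1 phase, E cyclins bind Cdk2 at entry into S phase, Ccna2 serves S and G2 phase, and Ccnb1 with Cdk1 drives mitosis. mESCs divide fast with a short G1 phase, and cyclin E activity is known to vary less over their cycle than in somatic cells.

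The depth was estimated from the steps between low FPKM values, which are worth 1 fragment each. It came to 24.75 M fragments in PB and 24.88 M in PB-TERRA (M for 10 to the power of 6). Intervals below are 95% exact binomial intervals for a log2 ratio, or exact Poisson intervals for a level. They rest on these estimated fragments and cover counting error only. The labelled cell type was checked against its markers. All 10 stem cell markers were expressed, from 31.9 FPKM (Fgf4) to 1162.5 FPKM (Dppa5a) in PB and from 37.1 to 1039.9 FPKM for the same genes in PB-TERRA. Of these 10, 4 had an interval above 0 and 4 below, with log2 ratios from -0.18 (Tdgf1) to 0.22 (Fgf4), and Nanog had 186 and 173 FPKM (-0.10). Of 10 fibroblast markers 5 passed 1 FPKM, and their list summed to 21.8 FPKM in PB and 25.6 FPKM in PB-TERRA. The sums were 38.3 and 36.0 FPKM for 6 trophoblast markers, 29.2 and 23.4 FPKM for 5 neural progenitor markers, and 12.1 and 12.9 FPKM for 5 mesoderm markers. Single low markers differed more than these sums. Of the other lineages' markers past the filter, those with an interval above 0 were Hand1 with 1.36 and 2.65 FPKM, Cdx2 with 1.19 and 2.13, Kdr with 0.79 and 1.11, Sox1 with 1.06 and 1.56, Col1a1 with 7.99 and 12.1 and Col1a2 with 0.92 and 1.37. Those with an interval below 0 were Nes with 27.3 and 20.9 FPKM, Eomes with 6.13 and 5.05, Tfap2c with 21.9 and 18.6 and Fbn1 with 1.54 and 1.31. No marker was at the 0.01 FPKM floor in both libraries. The part of these cells in the results below was not tested. In bulk RNA, a change in the share of cells in a cycle phase and a change in RNA per cell cannot be told apart.

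The cyclin and CDK program of these mESCs differed little between the libraries. None of the 10 genes (0) differed by a log2 ratio of 1 or more, as 0.913% of the 12263 genes past the filter of 1 FPKM did. Only Ccnd2 passed a 1.2-fold difference (1 of 10), against 16.3% of all genes, low ones included. By sign alone 5 of the 10 were higher in PB-TERRA and 5 lower, against 48.6% and 50.9% of all genes. With both libraries scaled to the same FPKM sum, 8 were higher and 2 lower, against 58.8% and 41.2% of all genes, since Ccna2, Ccnb1 and Cdk2, whose differences are within counting error, then changed sign. The interval lay above 0 for 4 (Ccnd1, Ccnd2, Ccnd3 and Ccne2), against 18.2% of all genes, and below 0 for 2 (Cdk1 and Cdk4), against 17.6%. The 4 higher genes include all 3 D cyclins, and the 2 lower genes are kinases. The intervals of the D cyclins and of these 2 kinases stayed on their side of 0 under centring, scaling to the same FPKM sum and both corrections given below. For the E cyclins the sign held but whether the interval includes 0 changed. Counting intervals are narrow for abundant genes, and 8 of the 10 members had over 30 FPKM in both libraries. Of all 2811 such genes, a threshold chosen after the values were seen, 25.4% had an interval above 0, 27.0% below it and 5.30% a difference past 1.2-fold. Of the 8 members, 0 passed 1.2-fold, Ccnd1 and Ccnd3 were above and Cdk1 and Cdk4 below. The median log2 ratio of the members was 0.0066, and that of all genes past the filter was -0.0044.

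**Figure D1:**
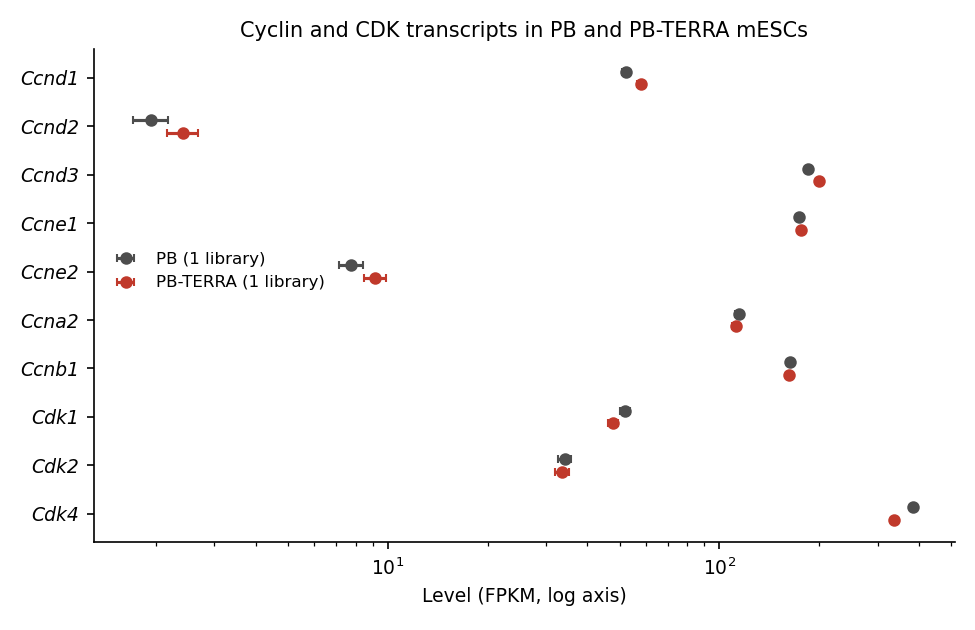
Level of each of the 10 genes in PB (grey) and PB-TERRA (red) mESCs, in FPKM on a log axis, 1 library each; horizontal bars are exact Poisson intervals and cover counting error only. Cdk4 is the highest and Ccnd2 the lowest in both libraries, and for every gene the libraries lie close together compared with the range between genes.

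The 10 levels covered a wide range and kept the same order in both libraries. Cdk4 was the most abundant, followed by Ccnd3, Ccne1, Ccnb1, Ccna2, Ccnd1, Cdk1, Cdk2, Ccne2 and Ccnd2. FPKM is per length, which puts these levels on a common scale. Effects of GC content and shared sequence on a gene's level are not removed, and counting intervals do not cover them. Neighbours in this order had separate counting intervals, with 1 exception. In PB, Ccnd1 at 52.2 FPKM (50.7 to 53.7) and Cdk1 at 51.9 FPKM (50.2 to 53.6) could not be told apart at this depth. In PB-TERRA they stood apart, at 57.9 FPKM (56.3 to 59.4) and 47.9 FPKM (46.3 to 49.6). Of all genes past the filter, Cdk4 lay at percentile 98.7 of level in PB, Ccne1 at 96.7, Ccnb1 at 96.4 and Ccnd2 at 11.6. The spread between libraries that separate cultures would give is not known, so the order is that of the values in these libraries. Between close neighbours such as Ccne1 and Ccnb1, an order of the true RNA levels is not shown.

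The D cyclins, the growth-signal-dependent partners of Cdk4 and Cdk6, were each higher in PB-TERRA. Ccnd1 (NCBI gene 12443) had 52.2 FPKM in PB and 57.9 FPKM in PB-TERRA, from an estimated 4757 and 5301 fragments. Its log2 ratio of FPKM + 0.1 was 0.15 (0.09 to 0.21). Ccnd1 accounted for 21.9% of the summed D cyclin FPKM in PB and 22.2% in PB-TERRA.

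Ccnd3 (gene 12445), the dominant D cyclin of these cells, had 185 FPKM in PB and 200.03 FPKM in PB-TERRA, from 8584 and 9346 fragments. Its log2 ratio was 0.12 (0.07 to 0.16), the smallest of the 3 D cyclins. It made up 77.3% of D cyclin FPKM in PB and 76.8% in PB-TERRA.

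Ccnd2 (gene 12444), which is low in these mESCs, had 1.93 FPKM in PB and 2.41 FPKM in PB-TERRA. It rests on 270 and 339 fragments, and its log2 ratio of 0.31 has a wide interval (0.09 to 0.56). This was the largest difference among the 10 genes in these libraries, at percentile 94.2 of the log2 ratios of all genes past the filter. It made up under 1% of D cyclin FPKM in each library (0.808% in PB and 0.926% in PB-TERRA). Summed, the D cyclins had 239 FPKM in PB and 260.3 FPKM in PB-TERRA, a log2 ratio of 0.12.

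The E cyclins, which activate Cdk2 at the G1 to S transition, were carried almost wholly by Ccne1. Ccne1 (gene 12447) had 174 FPKM in PB and 176 FPKM in PB-TERRA, from 8212 and 8358 fragments. Its log2 ratio was 0.02 (-0.03 to 0.06), and a difference was not detectable at this depth. With the libraries scaled to the same FPKM sum it was 0.06 (0.01 to 0.10), and after a correction for GC content and length it was 0.08 (0.03 to 0.12), both above 0. It made up 95.7% of E cyclin FPKM in PB and 95.1% in PB-TERRA.

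Ccne2 (gene 12448), the second E cyclin gene, had 7.77 FPKM in PB and 9.15 FPKM in PB-TERRA, from 560 and 663 fragments. Its log2 ratio was 0.23 (0.07 to 0.40), at percentile 91.0 of all genes past the filter. After the correction for GC content and length it was 0.15, with an interval that includes 0 (-0.01 to 0.32). The level of Ccne1 was 22.4 times that of Ccne2 in PB and 19.2 times in PB-TERRA.

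The cyclins of the later phases had nearly equal levels in both libraries. Ccna2 (gene 12428), the cyclin A of dividing somatic and stem cells, had 114 FPKM in PB and 112 FPKM in PB-TERRA, from 7668 and 7552 fragments (log2 ratio -0.03, -0.08 to 0.02). Ccnb1 (gene 268697), the mitotic cyclin, had 163.1 FPKM in PB and 162.6 FPKM in PB-TERRA, from 8888 and 8906 fragments. Its log2 ratio of -0.0046 (-0.05 to 0.04) was the closest to 0 of all 10. Both intervals include 0, and with the libraries scaled to the same FPKM sum both log2 ratios were above 0, at 0.0084 and 0.03.

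Of the kinases, Cdk4 and Cdk1 were lower in PB-TERRA and Cdk2 was near equal. Cdk4 (gene 12567), the G1 kinase of the D cyclins, had 383 FPKM in PB and 336 FPKM in PB-TERRA, from 11870 and 10451 fragments. Its log2 ratio was -0.19 (-0.23 to -0.15), the lowest of the 10, at percentile 14.4 of all genes past the filter. After the correction for GC content and length it was -0.10 (-0.14 to -0.06), close to Cdk1 at -0.09 (-0.16 to -0.02). Cdk1 (gene 12534), the mitotic kinase, had 51.9 and 47.9 FPKM, from 3525 and 3272 fragments, a log2 ratio of -0.11 (-0.18 to -0.05). Cdk2 (gene 12566), the partner of E and A cyclins, had 34.2 and 33.5 FPKM, from 1857 and 1833 fragments, a log2 ratio of -0.03 (-0.12 to 0.07) that was 0.01 with the libraries scaled to the same FPKM sum. The 3 kinases summed to 469 FPKM in PB and 417 FPKM in PB-TERRA (log2 ratio -0.17), of which Cdk4 made up 81.7% and 80.5%.

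**Figure D2:**
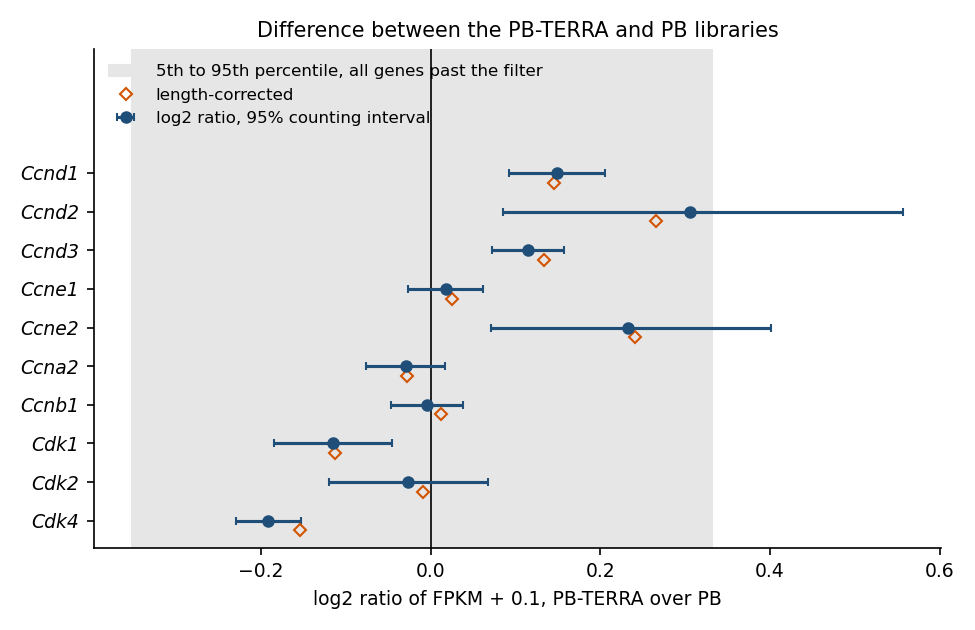
log2 ratio of FPKM + 0.1, PB-TERRA over PB, for each gene (blue points, 95% counting interval), with the length-corrected log2 ratio (open diamonds) and the 5th to 95th percentile of all genes past the filter (grey band, -0.35 to 0.33). The 3 D cyclins and Ccne2 lie right of 0, Cdk1 and Cdk4 left of it, and all 10 points lie inside the grey band.

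Promoters of the kinases with a lower level, Cdk4 and Cdk1, are shown with that of Ccnb1, the partner of Cdk1, whose level was near equal. Each window runs from 250 bases before to 50 bases after the transcription start, 300 bases in all, taken from RefSeq on GRCm38.p6. This is not the mm9 build named in the submitters' processing notes, and the windows were matched by symbol. Of the 10 genes, 6 had an entry (Ccnd3 with 2 windows). Ccnd1, Ccnd2, Ccne2 and Ccna2 had none. Capitals mark CACGTG (the E-box, bound by MYC family and other helix-loop-helix factors) in Cdk4, and in Cdk1 and Ccnb1 the letters TTTGAA (the CHR, an element of G2 and M phase promoters) and CCAAT (the box of the NF-Y factor, ATTGG on the other strand).
Cdk4, GRCm38.p6 chr10:127063285-127063584 (+ strand): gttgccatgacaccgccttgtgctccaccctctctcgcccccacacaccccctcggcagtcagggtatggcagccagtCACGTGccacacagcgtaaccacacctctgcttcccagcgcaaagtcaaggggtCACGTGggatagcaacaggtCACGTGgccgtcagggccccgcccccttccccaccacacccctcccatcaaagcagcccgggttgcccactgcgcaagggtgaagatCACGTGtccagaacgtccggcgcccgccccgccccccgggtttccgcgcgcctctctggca
Cdk1, GRCm38.p6 chr10:69352863-69353162 (- strand): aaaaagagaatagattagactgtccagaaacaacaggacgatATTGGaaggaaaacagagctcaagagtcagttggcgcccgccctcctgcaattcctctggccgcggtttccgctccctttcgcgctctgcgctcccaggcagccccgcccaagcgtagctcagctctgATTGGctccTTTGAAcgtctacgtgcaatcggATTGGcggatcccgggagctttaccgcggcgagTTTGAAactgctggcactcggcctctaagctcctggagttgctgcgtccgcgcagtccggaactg
Ccnb1, GRCm38.p6 chr13:100786437-100786736 (- strand): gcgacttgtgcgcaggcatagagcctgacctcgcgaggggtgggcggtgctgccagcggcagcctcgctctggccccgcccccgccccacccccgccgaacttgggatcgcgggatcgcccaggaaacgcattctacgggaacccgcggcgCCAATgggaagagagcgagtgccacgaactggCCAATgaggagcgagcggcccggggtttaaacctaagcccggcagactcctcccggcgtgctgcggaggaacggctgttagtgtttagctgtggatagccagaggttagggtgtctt

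The Cdk4 window holds 4 copies of CACGTG, starting 172, 118, 98 and 11 bases before the start site. In 32851 mouse promoter windows of the same length, 7.15% hold the letters at least once and 0.0244% (8 windows) hold 4 or more. The other member windows hold 0. The Cdk1 window holds TTTGAA at 71 and 15 bases before the start, CCAAT in reverse at 208, 80 and 48 bases before it, and TTTCGCGC, 1 of 3 forms searched for E2F factors (with TTTGGCGC and TTTCCCGC), at 131 bases before it. The Ccnb1 window holds CCAAT at 99 and 67 bases before the start and 0 copies of TTTGAA. The CHR was searched in this form only, so whether the Ccnb1 window holds a CHR in other letters was not tested. On either strand, TTTGAA is in 17.9% of the windows, CCAAT in 37.4% and an E2F form in 1.84%. As many copies as in Cdk1 are rarer, with 2 or more of TTTGAA in 2.31% and 3 or more of CCAAT in 3.37%. Beside Cdk1, only the Cdk2 window held an E2F form (1), and the Ccne1 window held none of the 4 motifs in the forms searched (0 matches). Each match describes these letters and is not evidence of binding.

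Because the D cyclins were higher and Cdk4 lower, the balance of their transcripts differed most. The summed D cyclin FPKM was 0.623 times that of Cdk4 in PB and 0.775 times in PB-TERRA, a log2 difference of 0.32. With Cdk6, the other partner of D cyclins, added to Cdk4, the ratios were 0.614 and 0.760. Cdk6 itself was low, at 5.73 FPKM in PB and 6.74 FPKM in PB-TERRA (log2 ratio 0.23, 0.14 to 0.33), or 0.15 (0.06 to 0.25) after the length correction described below. E cyclins over Cdk2 were 5.32 in PB and 5.52 in PB-TERRA, and Ccna2 with Ccnb1 over Cdk1 were 5.35 and 5.73. These are ratios of transcripts from 1 library each, and protein was not measured.

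The log2 ratio moved with gene length across all genes. In 10 length classes of the genes past the filter, the median difference (log2) was -0.06 for the shortest class and 0.05 for the longest. Cdk4 is the shortest member (1365 bases) and Ccnd2 the longest (5772 bases). After subtraction of the median of genes of like length, the log2 ratio was -0.15 for Cdk4, 0.27 for Ccnd2, 0.24 for Ccne2, 0.15 for Ccnd1, 0.13 for Ccnd3 and -0.11 for Cdk1. With GC content and length taken off together, Ccnd3 was at 0.17, Ccnd1 at 0.18 and Ccnd2 at 0.28. With either correction the intervals, shifted by the amount taken off, stayed above 0 for the 3 D cyclins and below 0 for Cdk4 and Cdk1. The part of length and GC content in these differences was not tested further.

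**Figure D3:**
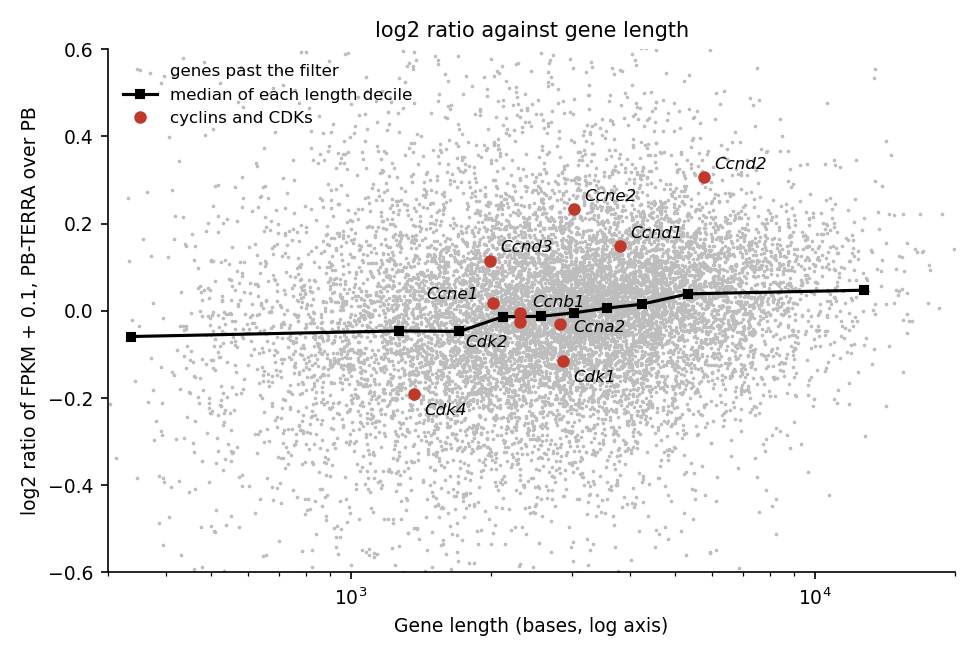
log2 ratio of FPKM + 0.1, PB-TERRA over PB, against gene length in bases on a log axis, for genes past 1 FPKM (grey), for the median of each length decile (black squares, placed at the geometric mean of the shortest and longest gene of the decile) and for the 10 cyclin and CDK genes (red); 419 genes lie outside the axes. The medians run from -0.06 to 0.05, and the D cyclins and Ccne2 lie above the line of medians while Cdk1 and Cdk4 lie below it.

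Some member transcripts share sequence with other genes, and the library kit named in the labels does not mark strand. Of the distinct 50-base stretches of the GENCODE M21 transcripts, 23.4% of Ccnb1 (18.9% in the processed pseudogene Ccnb1-ps), 21.6% of Ccnd1, 17.01% of Cdk4, 14.4% of Ccne2 and 11.4% of Ccna2 also occur in another gene, on either strand. For Ccnd2, Ccnd3 and Cdk2 the share was 6.31%, 5.39% and 0.062%, and for Ccne1 and Cdk1 it was 0. The stretches of Cdk4 are shared with Tspan31, which had 52.2 FPKM in PB and 54.5 FPKM in PB-TERRA (log2 ratio 0.06, -0.03 to 0.16). Exosc9, which shares sequence with Ccna2, had 21.5 and 23.9 FPKM (log2 ratio 0.15, 0.01 to 0.29). Oraov1 (named LTO1 in GENCODE), which shares sequence with Ccnd1, had 4.18 and 4.33 FPKM (0.05, -0.24 to 0.35). Ints8, which shares with Ccne2, had 21.6 and 20.5 FPKM (-0.08, -0.17 to 0.01), and Bysl, which shares with Ccnd3, had 36.0 and 35.0 FPKM (-0.04, -0.11 to 0.03). Ccnb1-ps was not found by symbol in the deposited table, so Ccnb1, the member with the largest share, has no partner value here. Of the 5 genes with values, Exosc9 alone had an interval without 0, and the part of shared reads in the members' values was not tested. How the authors' counting divided such reads is not given in the sources used here, so these members' values are uncertain to that extent.

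Outside the 10 genes, the pathway was examined in 8 lists, and 156 of their genes passed the filter. A log2 ratio of 1 or more was reached by 0 of the 156, near the 0.913% of all genes. Median levels in PB were 45.5 FPKM for G2/M genes, 37.1 FPKM for cyclin destruction and 34.9 FPKM for G1/S genes. Over all genes past the filter the median was 11.0 FPKM. Intervals are narrower at such levels, and of genes of at least 30 FPKM in both libraries 25.4% lay above 0 and 27.0% below it. The counts of intervals above and below 0 in the other lists can be read against 18.2% and 17.6% of all genes. At the same FPKM sum these shares were 24.99% and 12.3%, and the counts above 0 became 7 of 17 other cyclins, 5 of 15 other CDKs, 9 of 18 pocket and E2F genes, 2 of 9 CDK activators and inhibitory kinases, 5 of 27 cyclin destruction genes, 12 of 28 G1/S genes and 19 of 36 G2/M genes. Among 19 other cyclins 17 passed the filter, 13 of them higher and 4 lower in PB-TERRA (15 and 2 at the same FPKM sum), with a median log2 ratio of 0.05. An interval above 0 was found for 4 (Ccng1, Ccnk, Ccnh and Ccnc) and below 0 for 2 (Ccng2 and Ccnjl). Ccnb2, the other main mitotic cyclin, had 80.9 FPKM in PB and 80.0 FPKM in PB-TERRA (log2 ratio -0.02, -0.09 to 0.06). Ccng1, the most abundant of the list and a p53 target, had 109 and 123 FPKM (0.18, 0.14 to 0.22). Ccnh, a subunit of the CDK-activating kinase, had 26.0 and 30.7 FPKM, the highest log2 ratio of the list at 0.24. Ccng2 was lowest, at 5.85 and 4.31 FPKM (-0.43, -0.68 to -0.21).

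Of 16 other CDKs 15 passed the filter, 9 higher and 6 lower (12 and 3 at the same FPKM sum), with a median log2 ratio of 0.01. Intervals were above 0 for 4 (Cdk6, Cdk12, Cdk8 and Cdk11b) and below 0 for 0. Cdk6 had the highest log2 ratio and Cdk20 the lowest (-0.13, -0.51 to 0.24). After the length correction Cdk12 (0.19) and Cdk14 (-0.16) were the extremes. Cdk11b was the most abundant, with 54.9 FPKM in PB and 57.9 FPKM in PB-TERRA.

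The CDK inhibitors, proteins that bind CDKs or cyclin-CDK complexes and block them, held the largest single difference of these lists. Of 7 genes 6 passed the filter, 4 higher and 2 lower, with a median log2 ratio of 0.05 that was 0.10 after the length correction. Intervals were above 0 for 2 and below 0 for 1. Cdkn1c, an imprinted inhibitor of the p57 type, had 27.7 FPKM in PB and 46.1 FPKM in PB-TERRA (0.73, 0.63 to 0.84). Cdkn1a, the p53-induced inhibitor p21, had 38.1 and 44.0 FPKM (0.20, 0.11 to 0.30). Cdkn1b (p27) had 12.4 and 11.6 FPKM (-0.09, -0.24 to 0.07), and Cdkn2a, an inhibitor of Cdk4 and Cdk6, had 2.64 and 2.68 FPKM (0.02, -0.55 to 0.59). Cdkn2d was lowest, with 7.85 and 6.21 FPKM (-0.33, -0.63 to -0.05), an interval that includes 0 after the GC and length correction (-0.53 to 0.05). Cdkn2c stayed under the filter, with 0.27 and 0.58 FPKM from 11 and 25 fragments.

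Downstream of Cdk4, the 18 pocket proteins, E2F factors and their partners all passed the filter, 12 higher and 6 lower (15 and 3 at the same FPKM sum), with a median log2 ratio of 0.05. Intervals were above 0 for 6 and below 0 for 1, E2f4. Rb1, the pocket protein that D cyclin kinases phosphorylate, had 4.55 FPKM in PB and 5.44 FPKM in PB-TERRA (0.25, 0.09 to 0.43). E2f2 had the highest log2 ratio (7.13 and 9.97 FPKM, 0.48, 0.35 to 0.62), E2f1 was near equal (13.9 and 13.7 FPKM, -0.02, -0.15 to 0.11), and Lin37 was lowest at -0.13 (-0.33 to 0.07). E2f4, the most abundant of the list, had 159 and 151 FPKM (-0.08, -0.13 to -0.04), an interval that just includes 0 at the same FPKM sum. After the length correction E2f4 was the lowest of the list at -0.08, with Lin37 at -0.06.

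Among 9 CDK activators and inhibitory kinases, 3 were higher and 6 lower, with a median log2 ratio of -0.09. Intervals were above 0 for 1 and below 0 for 3, and below 0 for 4 after the GC and length correction. Cks1b and Cks2, small subunits that bind Cdk1 and Cdk2, had log2 ratios of -0.13 (-0.21 to -0.05) and -0.24 (-0.33 to -0.15), from 185 and 150.4 FPKM in PB to 169 and 127 FPKM in PB-TERRA. After the length correction Cks1b, a short gene, was at -0.06 with an interval that includes 0 (-0.13 to 0.02), and Cks2 was at -0.21. Cdc25a, the phosphatase that activates Cdk2, was the highest, with 33.5 and 37.4 FPKM (0.16, 0.09 to 0.23). Wee1, the kinase that holds Cdk1 inactive, had 26.3 and 25.2 FPKM (-0.06, -0.15 to 0.02).

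Of 27 genes for the destruction of cyclins, 7 were higher and 20 lower, with a median log2 ratio of -0.02. This split turned to 16 higher and 11 lower at the same FPKM sum, where the median was 0.02, and to 13 and 14 after the GC and length correction. The interval lay above 0 for 3 and below 0 for 5. Fbxw7, the receptor through which cyclin E is degraded, was the highest, with 10.4 FPKM in PB and 13.7 FPKM in PB-TERRA (0.38, 0.27 to 0.50). Fbxo31 was the lowest, at -0.22 (-0.39 to -0.06). Cdc20, an activator of the anaphase-promoting complex that degrades Ccnb1, had 189 and 178 FPKM (-0.09, -0.14 to -0.04, but -0.02 with an interval including 0 after the GC and length correction), while Fzr1, its G1 counterpart, had 58.2 and 57.5 FPKM (-0.02, -0.09 to 0.06). Skp2, which degrades p27, had 36.7 and 36.5 FPKM (-0.01, -0.08 to 0.07). Ube2s, the most abundant gene of the list in PB, had 356 and 317 FPKM (-0.17, -0.21 to -0.12), or -0.10 after the length correction.

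Genes whose RNA peaks in a given phase lay close to equal levels. Of 28 G1/S genes, 14 were higher, 13 lower and 1 equal (18 and 10 at the same FPKM sum, 11 and 17 after the GC and length correction), with a median log2 ratio of 0.00021, from -0.19 (Cdc45, a helicase component) to 0.16 (Pola1, a DNA polymerase subunit). Pcna, the sliding clamp of replication and the most abundant, had 214 FPKM in PB and 209 FPKM in PB-TERRA (-0.03, -0.09 to 0.02). Pola1 was at 0.05 with an interval that includes 0 after the GC and length correction. With the length correction alone, Gins2 (0.18) and Exo1 (-0.19) were the extremes of the G1/S genes. Of 36 G2/M genes, 24 were higher and 12 lower (27 and 9 at the same FPKM sum, 20 and 16 after the GC and length correction), with a median of 0.02, from -0.18 (Cdca8, a chromosomal passenger subunit) to 0.18 (Cenpf, a kinetochore protein). After the length correction Cenpf, a long gene, was at 0.10 and Cdca8 at -0.13, and Ckap2 (0.19) and Bub1 (-0.14) were the extremes. Mybl2, a transcription factor of the cell cycle and the most abundant, had 171 and 179 FPKM (0.07, 0.03 to 0.10). The interval lay above 0 for 5 and below 0 for 5 of the G1/S genes, and above 0 for 13 (36.1%) and below 0 for 5 (13.9%) of the G2/M genes. Of all genes of at least 30 FPKM in both libraries, 25.4% lay above 0 and 27.0% below it. At the same FPKM sum the counts above and below 0 were 12 and 5 for the G1/S genes and 19 and 3 for the G2/M genes. After the GC and length correction they were 6 and 6 of the G1/S genes and 9 and 5 of the G2/M genes, against 16.6% and 15.7% of all genes.

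**Figure D4:**
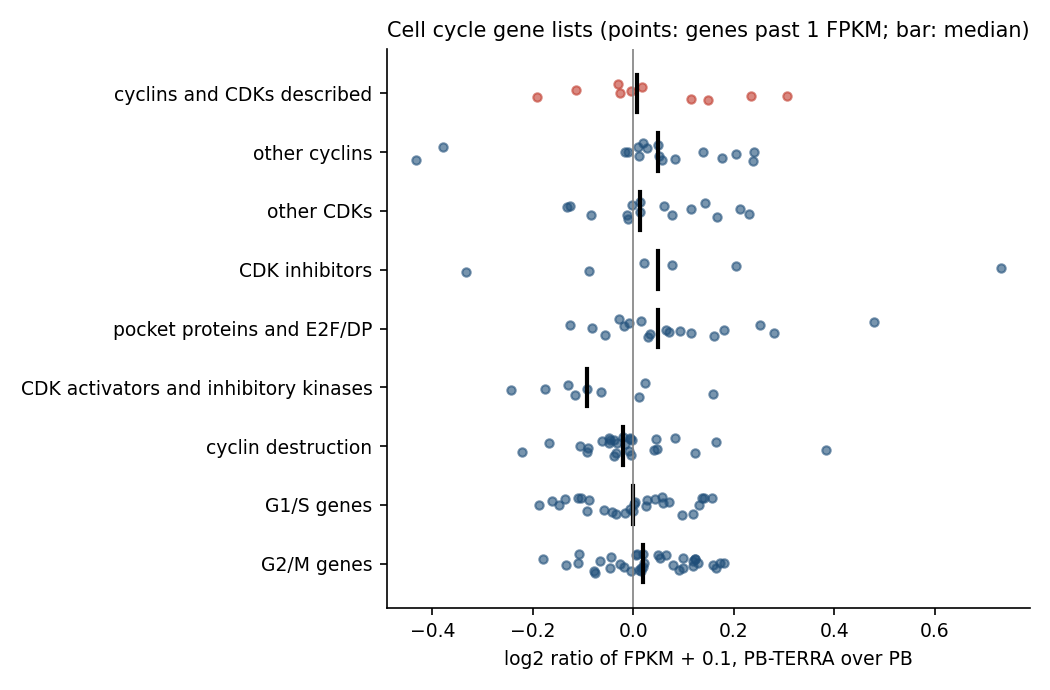
log2 ratio of FPKM + 0.1, PB-TERRA over PB, of each gene past 1 FPKM in the 10 cyclins and CDKs (red) and in the 8 other cell cycle lists (blue); black bars are list medians, and points are spread vertically for legibility only. List medians lie between -0.09 and 0.05, and Cdkn1c, at 0.73, is the point farthest from 0.

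A wider set is given by the gene ontology term cell cycle in the deposited table, examined after the member values were seen. The table attaches it to 98 genes, none (0) of the members among them. Past the filter were 86, with 47 higher, 39 lower and a median log2 ratio of 0.02, and 0 of them reached a log2 ratio of 1. Intervals were above 0 for 23 and below 0 for 16, where 18.2% and 17.6% of all genes were. The term regulation of cell cycle, which 5 members carry (Ccne1, Ccne2, Ccna2, Ccnb1 and Cdk4), had 56 other genes past the filter, 30 higher and 26 lower, with a median of 0.01 and intervals above 0 for 15 and below 0 for 13. Of these 1, a gene of 507 bases with no symbol in the table, reached a log2 ratio of 1 in size, at -1.92.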

How the data were processed

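RNA of 46C mESCs was sequenced on BGISEQ500 from TruSeq libraries, 1 PB and 1 PB-TERRA. The authors deposited 1 table of 18888 genes, whose expression values were read as FPKM from the values themselves, since the header names no unit. They are rounded to 2 decimals with a floor of 0.01. HISAT, Cufflinks and mm9 are named in the submitters' processing notes, with no version or role. The table also holds the authors' fold changes, p-values and adjusted p-values, which were not used. Gene length is as deposited.

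PB-TERRA was set over PB on the log2(FPKM + 0.1) scale, so that the change of low genes is understated, for 12263 genes reaching 1 FPKM in a library. No test between conditions is possible with 1 library each.

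Fragments were estimated because low values of genes of 300 to 900 bases fall on steps. A grid search over the library total and the bases taken off the length (114) placed 72.5% of 462 values in PB and 79.0% of 509 in PB-TERRA on whole fragments of up to 6, within rounding (0.005 FPKM), where evenly spread values would give 13.1% in each. The method was checked on simulated data. These were built with the same steps that the fit assumes, so the check does not cover the values here that fell off whole fragments. PCR copies are not told apart, so intervals cover counting error only.

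The members and lists were chosen with earlier results of these data known. Named are the 10 members and, in each list, the highest and lowest log2 ratio past the filter, the most abundant gene and direct partners of the members; others named beside a count were chosen after their values were seen. With 2 libraries, no likeness of patterns between genes was computed. GC content (longest GENCODE M21 transcript) was found for 93.5% of genes past the filter. Alternatives covered the scaling, pseudocount, filter, length, GC content and weighting of sums. Software was scipy 1.17.1, pandas 2.3.3 and numpy 2.4.6 on Python 3.11.15, with matplotlib 3.10.9 for plots.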

Additional observations from a re-analysis of the deposited data

How the results depend on the processing

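The log2 ratios of Ccnd1, Ccnd2, Ccnd3, Ccne1, Ccne2, Cdk1 and Cdk4 kept their sign under all 6 alternatives run for single genes, while those of Ccna2, Ccnb1 and Cdk2 did not. The scaling moved counts by sign most. With both libraries scaled to the same FPKM sum, which shifts all genes by 0.04 on the log2 scale, 8 members were higher and 2 lower. Under this scaling 2 other cyclins, 3 other CDKs and 3 pocket and E2F genes were lower, 16 cyclin destruction genes were higher and 11 lower, and the G2/M median was 0.057. The log2 ratios of sums became 0.16 for D cyclins, 0.023 for A and B cyclins, -0.13 for CDKs and 0.083 for all 7 cyclins. As means of the genes' log2 ratios, each gene counting the same, they were 0.19 for D cyclins, 0.13 for E cyclins, -0.11 for CDKs and 0.11 for all 7 cyclins, since the low genes Ccnd2 and Ccne2 then weigh as much as abundant ones. After a correction for GC content together with length, which was chosen after seeing the data, Ccnd3 was at 0.17, Ccne1 at 0.079 and Cdk4 at -0.10, and 13 cyclin destruction genes were higher. With a mean of at least 5 FPKM, 2 CDK inhibitors were higher. Over all genes, 112 differed by a log2 ratio of 1 or more, 45 with 1 FPKM added, 513 with no filter and 17 with a mean of at least 5 FPKM. For the 10 members and the counts of genes higher and lower, centring, no pseudocount and the length correction alone moved no value beyond its counting interval and no count beyond 1.5 times. List medians have no interval of their own. At the same FPKM sum they were 0.09 for other cyclins, 0.05 for other CDKs, 0.09 for CDK inhibitors and 0.09 for pocket and E2F genes. Those of the CDK activators and inhibitory kinases and of the G1/S genes were then -0.05 and 0.04. With the length correction the cyclin destruction median went from -0.02 to -0.01. The length correction moved that of the CDK inhibitors from 0.05 to 0.10 and that of the other CDKs from 0.01 to 0.04, and the GC and length correction moved them to 0.14 and 0.06, that of the other cyclins from 0.05 to 0.02, that of the pocket and E2F genes from 0.05 to 0.03, and that of the G1/S genes from 0.00021 to -0.01. Single list genes did move beyond theirs with the length correction, Ube2s (-0.17 to -0.10) and Cenpf (0.18 to 0.10) among them, and with it 2 CDK activators in place of 1 had an interval above 0 and 1 other CDK (Cdk9) in place of 0 had one below. Of the members, 4 had an interval above 0 and 2 below it after either correction and after centring, and 5 and 2 at the same FPKM sum, a count made after seeing the data. The 4 after the GC and length correction hold Ccne1 in place of Ccne2. No paired analysis was possible because each condition has 1 library, and for the same reason no replicate could be left out.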
